A study of Mus musculus with 8 samples.

Results

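Granins and the enzymes that cut neuropeptide precursors were followed in the striatum of R6/2 mice, a widely used transgenic model of Huntington's disease, and of wild-type mice. The 10 genes were chosen by name, with earlier results of these data known. They were the granins Chga, Chgb, Scg2, Scg3, Scg5 and Vgf, and the processing enzymes Pcsk1, Pcsk2, Cpe and Pam. Every probe set that the platform annotation assigns to these symbols alone was kept, which gave 10 of the 45037 probe sets tested and 9 of 18193 named genes. Cpe had 2 probe sets and each of the other 8 genes had 1. No probe set carried Pcsk2 as its only symbol in that annotation, so Pcsk2 was not analysed here.

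RNA of striatal tissue was hybridised to Affymetrix arrays, 1 per mouse, for 4 R6/2 and 4 wild-type animals. The R6/2 mice were numbered 64, 65, 70 and 78 and carry a transgene with the first exon of human huntingtin and an expanded CAG repeat. The wild-type mice, which lack it, were numbered 42, 48, 54 and 63. All 8 were labelled as females of 85 days (12 weeks) of mixed strain (C57Bl/6 with CBA). A total of 5 wild-type mice is stated in the design, of which 1 was not analysed here. The transgene encodes a fragment of human huntingtin rather than the whole protein, which limits R6/2 mice as a model. The tissue is a mixture of cells, so a fall may mean fewer cells of a type or less RNA per cell, and the arrays cannot tell these apart.

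Granins are acidic secretory proteins that aggregate with peptide precursors in the trans-Golgi network and are packed into dense-core vesicles. In those vesicles the prohormone convertases cut the precursors after pairs of basic residues, carboxypeptidase E (Cpe) trims the basic residues left behind, and Pam adds the amide group that many peptides need to act. In the striatum the main cargo of this route includes enkephalin, dynorphin and substance P in projection neurons, and somatostatin and neuropeptide Y in interneurons. Several granin genes, and Pcsk1, are known as targets of the transcription factor CREB, which binds cyclic AMP response elements (CRE) in promoters.

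Promoters were read for 8 of the 10 genes from RefSeq (GRCm38.p6), as 250 bases before and 50 after an annotated transcript start; Cpe and Vgf had no entry. Both strands were searched for the CRE octamer TGACGTCA, for its shorter core TGACG, which overlaps each octamer, and for the left part (TTCAGCACC) and the right part of RE1, the element bound by the repressor REST. The octamer was found in Chgb, Scg2 and Pcsk1 and in 1.79% of all 32851 promoters. It lay at positions -72 to -65 from the start in Chgb, -68 to -61 in Scg2 and -78 to -71 in Pcsk1. Chga held the core alone, at -44 to -40, Scg3, Scg5 and Pcsk2 also held the core without the octamer, and the core occurs in 20.8% of all promoters. TTCAGCACC was found at the start of Scg2, on the strand opposite to the gene, and in 0.371% of promoters. The right part of RE1 was found in no promoter of these genes and in 0.521% of all. The 250 bases before the start are shown for the 2 granins that passed the test described further on and for the 2 other genes with the octamer, with octamers and cores in capitals.
Chgb, chr2:132781392-132781641, plus strand: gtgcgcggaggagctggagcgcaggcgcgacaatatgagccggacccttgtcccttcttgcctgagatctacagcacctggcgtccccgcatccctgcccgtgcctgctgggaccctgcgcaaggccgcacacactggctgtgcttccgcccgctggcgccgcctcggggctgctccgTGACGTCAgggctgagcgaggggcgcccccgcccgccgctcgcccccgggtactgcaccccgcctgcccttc
Chga, chr12:102554691-102554940, plus strand: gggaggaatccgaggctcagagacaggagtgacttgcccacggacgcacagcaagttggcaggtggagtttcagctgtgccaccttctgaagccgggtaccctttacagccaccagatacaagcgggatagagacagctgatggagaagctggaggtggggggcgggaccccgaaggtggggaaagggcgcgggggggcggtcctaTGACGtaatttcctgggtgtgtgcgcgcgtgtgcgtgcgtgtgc
Scg2, chr1:79440027-79440276, minus strand: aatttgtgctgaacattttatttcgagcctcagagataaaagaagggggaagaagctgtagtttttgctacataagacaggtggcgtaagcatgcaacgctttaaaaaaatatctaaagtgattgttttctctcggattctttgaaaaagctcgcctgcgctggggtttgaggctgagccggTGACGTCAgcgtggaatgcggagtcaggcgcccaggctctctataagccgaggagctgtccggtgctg
Pcsk1, chr13:75089607-75089856, plus strand: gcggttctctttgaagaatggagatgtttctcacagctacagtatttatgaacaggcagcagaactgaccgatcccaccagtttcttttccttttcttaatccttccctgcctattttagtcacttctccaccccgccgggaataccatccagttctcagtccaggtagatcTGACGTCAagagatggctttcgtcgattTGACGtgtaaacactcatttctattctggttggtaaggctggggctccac
A match describes these letters only. The 3 genes with the octamer had differences of unlike sign, given below: Chgb fell, while Scg2 and Pcsk1 had positive differences that did not pass the test.

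Levels are on a log2 scale, so a difference of 1 is a doubling, and each probe set was compared between genotypes; 3 gene pairs were also compared by how their difference on each array varied with genotype. Array medians lay between 5.08 and 5.13 and correlations between arrays between 0.983 and 0.994. Precision is set by having only 4 arrays a genotype. Markers of medium spiny neurons, the main striatal cell type, were present on every array: the mean of 13 measured markers lay between 10.39 and 10.43 in R6/2 mice and between 10.86 and 11.18 in wild-type mice. As a background level, 13 probe sets of Y-linked genes were used, since all mice were female. They reached 5.37, owing to a probe set of Sry and 1 of Zfy2, and the other 11 stayed at or below 3.71. Pcsk1, Pam and the second, dim Cpe probe set had both group means below 5.37, as did 52.2% of all probe sets, so no fold is given for them; all lay above 3.71.

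The chromogranin genes Chga and Chgb fell in R6/2 striatum, and no other member passed the test in either direction. Of 10 probe sets, 2 were lower at an adjusted p under 0.05 (limma, Benjamini-Hochberg over 45037 probe sets), against 4.59% of all probe sets called lower, and 0 were higher, against 5.54%. At an unadjusted p under 0.05, 4 were lower and 1 was higher. Genotypes did not overlap for 4 of the 10 probe sets, each of them lower in R6/2 mice, against 7.07% of all probe sets lower without overlap, 9.05% higher and 16.1% in either direction. Differences in the 10 probe sets had a median of -0.15, beside -0.017 over all probe sets. For the brightest probe set of each gene, 2 of 9 members were lower, against 5.13% of the 18193 genes, and 0 were higher, against 7.29%. Among the 1133 genes with a mean of at least 10, 14.1% were lower and 9.8% higher, 23.9% in all. Chgb was the only called member among them. Scg2, Scg3, Scg5, Vgf and Cpe also had a mean of at least 10 and did not pass, and Chga averaged 8.16. Members and the lists below were chosen with earlier results known. Shares set beside their counts are therefore a description and not a test.

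**Figure D1:**
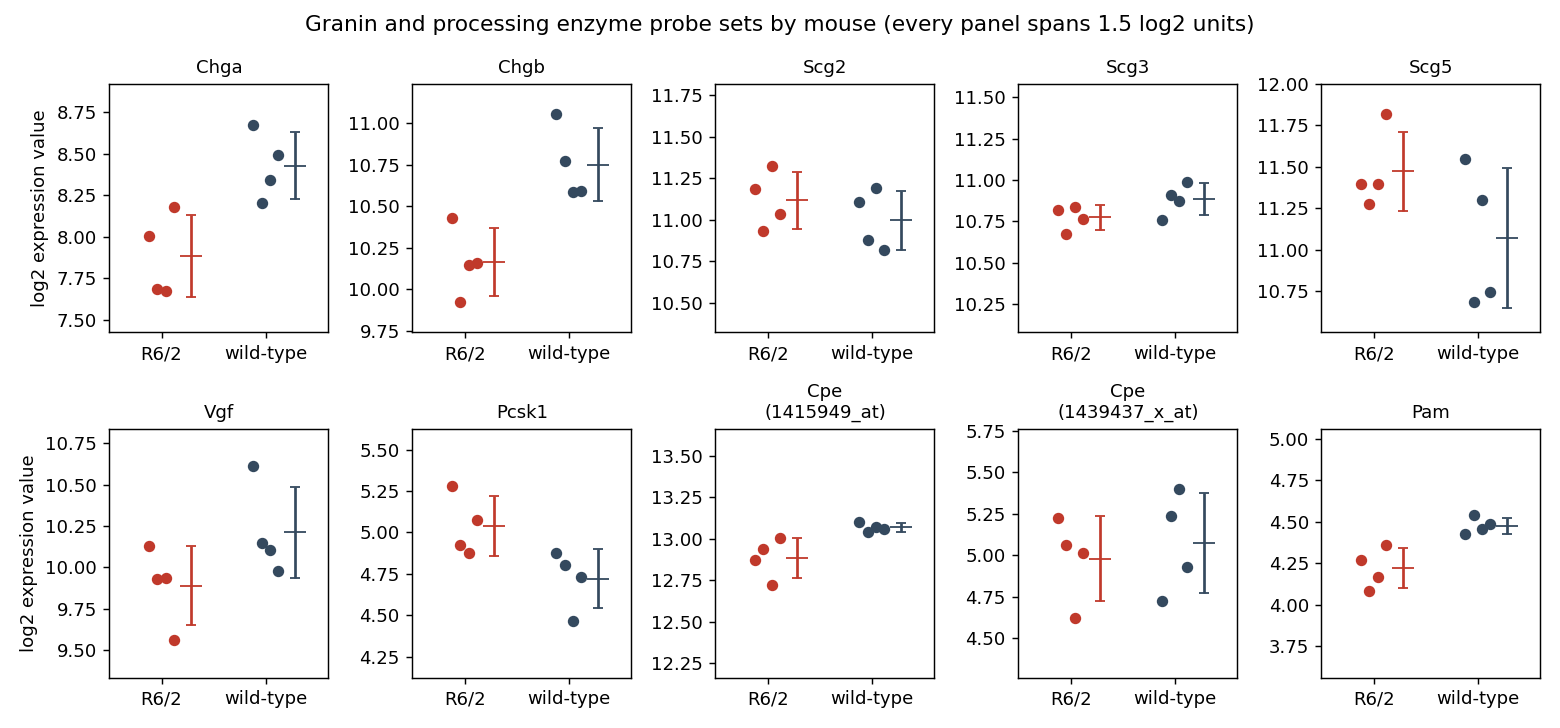
Log2 expression value (vertical axis) of each member probe set in the 4 R6/2 mice (red, left) and the 4 wild-type mice (dark blue, right), with mice in order of their numbers within a group; the bar beside each group is its mean and SD. R6/2 points lie below all wild-type points for Chga, Chgb, the bright Cpe probe set and Pam, and the groups overlap or meet in the other panels.

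Chgb encodes chromogranin B (secretogranin I), a core protein of dense-core vesicles. It measured 10.43, 9.92, 10.15 and 10.16 in R6/2 mice 64, 65, 70 and 78, against 11.06, 10.77, 10.58 and 10.59 in wild-type mice 42, 48, 54 and 63. Every R6/2 mouse lay below every wild-type mouse, with mouse 64 nearest to the wild-type range. The mean was 10.16 ± 0.21 in R6/2 mice and 10.75 ± 0.22 in wild-type mice (SD, n = 4 each), a log2 difference of -0.59 ± 0.13 (SE, limma adjusted p = 0.0200), or 1.5-fold lower. Leaving out 1 mouse raised the adjusted p above 0.05 in 4 cases, to 0.0517, 0.0563 and 0.0515 when R6/2 mice 65, 70 and 78 were omitted in turn and to 0.0565 when wild-type mouse 48 was, while the difference stayed between -0.67 and -0.49.

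Chga encodes chromogranin A, the founding granin and the precursor of several peptides. Its values were 8.01, 7.68, 7.67 and 8.18 in R6/2 mice 64, 65, 70 and 78, and 8.67, 8.20, 8.34 and 8.49 in wild-type mice 42, 48, 54 and 63. The groups came close without overlapping, since R6/2 mouse 78 lay just below wild-type mouse 48. Chga averaged 7.88 ± 0.25 in R6/2 mice and 8.43 ± 0.20 in wild-type mice (SD, n = 4 each), a difference of -0.54 ± 0.14 (log2, SE, limma adjusted p = 0.0333), or 1.46-fold lower. This call rested on most of the mice: the adjusted p was 0.0569 without R6/2 mouse 64, 0.0857 without 65, 0.0942 without 70, 0.0666 without wild-type mouse 42, 0.0564 without 54 and 0.0704 without 63. The difference was between -0.64 and -0.46 when 1 mouse was left out.

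Both chromogranins differed by a similar amount. The per-array value of Chga minus that of Chgb was -2.28 ± 0.22 in R6/2 mice and -2.32 ± 0.20 in wild-type mice (SD, n = 4 each), so the fall of Chga was 0.043 smaller on the log2 scale, within the spread between mice. An exact 2-sided permutation test over 70 arrangements gave p = 0.771 (adjusted p = 0.771 over 3 pairs of genes). The smallest p these arrangements allow is 0.0286.

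Vgf encodes a neuropeptide precursor of the granin family that neurotrophins induce. Its values were 10.13, 9.93, 9.94 and 9.56 in R6/2 mice 64, 65, 70 and 78, and 10.61, 10.15, 10.11 and 9.98 in wild-type mice 42, 48, 54 and 63. All but R6/2 mouse 64 lay below the wild-type range. The difference of -0.32 ± 0.15 (log2, SE) did not pass (limma adjusted p = 0.226), with a 95% interval from -0.66 to 0.017.

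Secretogranins II and III showed no difference beyond the spread between mice. Scg2, the precursor of secretoneurin, lay between 10.93 and 11.32 in R6/2 mice and between 10.82 and 11.19 in wild-type mice, and differed by 0.12 ± 0.11 (log2, SE, limma adjusted p = 0.560; 95% interval -0.13 to 0.37). Scg3, which binds chromogranin A and anchors it to the cholesterol-rich granule membrane, lay between 10.67 and 10.84 in R6/2 mice and between 10.76 and 10.99 in wild-type mice. Its difference was -0.11 ± 0.076 (adjusted p = 0.418; 95% interval -0.28 to 0.060). Both intervals leave out a change as large as the estimate for Chgb or Chga, -0.59 and -0.54; the differences between these genes were not tested.

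Scg5 encodes 7B2, a chaperone that the convertase PC2 needs to mature. It measured 11.40, 11.28, 11.40 and 11.82 in R6/2 mice 64, 65, 70 and 78, against 11.55, 10.68, 11.30 and 10.74 in wild-type mice 42, 48, 54 and 63. The wild-type mice were spread the most of any member: 42 and 54 lay within the R6/2 range, and 48 and 63 lay below it. The difference of 0.40 ± 0.20 (log2, SE) did not pass (limma adjusted p = 0.237). Its 95% interval, from -0.031 to 0.84, is also the widest among the members.

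None of the enzyme genes passed the test. Pcsk1, the convertase PC1/3 that makes the first cuts in many precursors, had 5.28, 4.93, 4.88 and 5.08 in R6/2 mice 64, 65, 70 and 78, against 4.88, 4.80, 4.47 and 4.73 in wild-type mice 42, 48, 54 and 63. The groups met at 4.88, the value of both R6/2 mouse 70 and wild-type mouse 42. The difference was 0.32 ± 0.11 (log2, SE, limma adjusted p = 0.111; 95% interval 0.065 to 0.57), at a level that the brightest Y-linked probe set also reached.

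For the later steps of processing, Cpe had a bright and a dim probe set. The bright one measured 12.88, 12.94, 12.72 and 13.00 in R6/2 mice 64, 65, 70 and 78, and 13.10, 13.04, 13.07 and 13.06 in wild-type mice 42, 48, 54 and 63. All R6/2 mice were lower, and the wild-type mice spanned a narrow range. The difference was small, -0.18 ± 0.076 (log2, SE, limma adjusted p = 0.166), or 1.14-fold. The dim probe set lay between 4.62 and 5.23 in R6/2 mice and between 4.73 and 5.40 in wild-type mice, with overlapping groups (-0.091 ± 0.16, adjusted p = 0.783), and its sign turned to 0.028 without R6/2 mouse 70 and to 0.018 without wild-type mouse 54.

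Pam, the amidating monooxygenase, was dim: 4.27, 4.08, 4.17 and 4.36 in R6/2 mice 64, 65, 70 and 78, against 4.43, 4.54, 4.46 and 4.49 in wild-type mice 42, 48, 54 and 63. The groups did not overlap, and the difference of -0.26 ± 0.078 (log2, SE) did not pass over all probe sets (limma adjusted p = 0.0654). With 1 probe set per gene, which tests fewer features, its adjusted p was 0.0489. At a similar level, the Y-linked Zfy2, part of the background, averaged 4.16 in R6/2 mice and 4.51 in wild-type mice, with overlapping groups. The difference of Zfy2 was -0.36 ± 0.13 (log2, SE, limma unadjusted p = 0.0206, adjusted p = 0.117). The per-array value of Cpe minus that of Pam was 8.66 ± 0.13 in R6/2 mice and 8.59 ± 0.073 in wild-type mice (SD, n = 4 each). The exact permutation test, 2-sided, gave p = 0.457 (adjusted p = 0.686 over the 3 pairs). Because Pam lay below the background level of 5.37, this pair cannot decide whether Cpe and Pam changed alike.

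**Figure D2:**
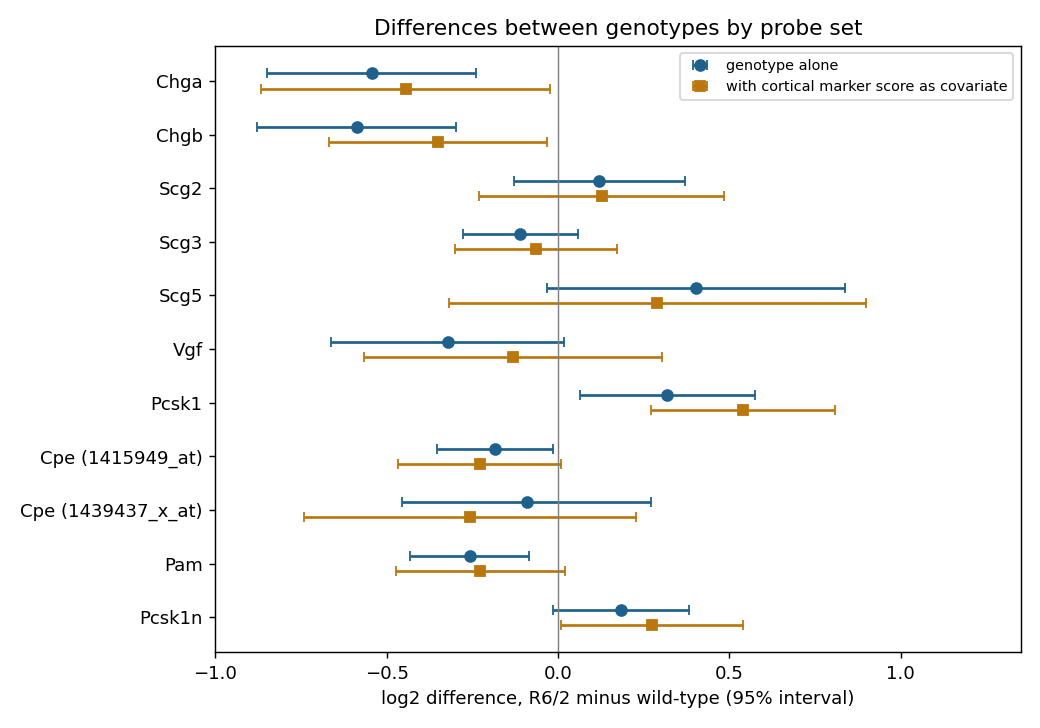
Log2 difference, R6/2 minus wild-type (horizontal axis, with 95% intervals), for the member probe sets and the inhibitor gene Pcsk1n, from genotype alone (circles) and with the cortical marker score of each array as a covariate (squares). Chgb moves from -0.59 to -0.35 and Vgf from -0.32 to -0.13 with the covariate, while Pcsk1 moves from 0.32 to 0.54.

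Markers of cortical projection neurons varied between the arrays, and not all in the same way. The score of 17 measured cortical markers, their mean minus the wild-type mean, was -0.09, -0.87, -0.44 and -0.74 in R6/2 mice 64, 65, 70 and 78, against 0.23, 0.08, -0.51 and 0.20 in wild-type mice 42, 48, 54 and 63. The groups overlapped, with a mean of -0.54 ± 0.35 in R6/2 mice and 0 ± 0.35 in wild-type mice (SD, n = 4 each). By an exact permutation test, 2-sided, p was 0.0857. Of the 17, 2 were lower and 0 higher by limma (9 and 0 at an unadjusted p under 0.05), with mean levels between 6.03 and 6.81 in R6/2 mice and between 6.39 and 7.13 in wild-type mice. The vesicular glutamate transporter gene Slc17a7 ranged from 5.08 to 7.64 in R6/2 mice and from 5.80 to 8.66 in wild-type mice, and 4 of the 17 markers had both group means below 5.37. Slc17a7 was lower in wild-type mouse 54 (5.80) than in R6/2 mouse 64 (7.64). The brightest probe set of Rasgrf2, which was called lower, had the opposite order in these mice, 8.47 and 7.89, and its genotypes did not overlap.

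Within each genotype, Chgb was highest in the mouse with the highest cortical score, R6/2 mouse 64 and wild-type mouse 42, and lowest in the mouse with the lowest, R6/2 mouse 65 and wild-type mouse 54. Wild-type mouse 63 had almost the same Chgb value as mouse 54, 10.59 against 10.58, at a score of 0.20 against -0.51. Vgf was also highest in mice 64 and 42, but lowest in R6/2 mouse 78 and wild-type mouse 63, whose score was near the top of its group. Chga was highest in wild-type mouse 42 and, among R6/2 mice, in mouse 78, which had the second lowest score. The relation of members to the score within a genotype was not tested. With the score as a covariate, Chgb differed by -0.35 ± 0.14 (log2, SE, limma adjusted p = 0.222) and Chga by -0.44 ± 0.19 (adjusted p = 0.241), so neither passed and 0 members were called lower. Pcsk1 then passed as higher, at 0.54 ± 0.12 (adjusted p = 0.0446). Scg2 was barely altered by the covariate, at 0.13 ± 0.16. This fit has a larger median standard error, 0.13 against 0.096, and called 1610 probe sets in place of 4566. The score itself differed by -0.54 between genotypes and includes markers that separate them. The fit therefore cannot tell cortical RNA from genotype.

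**Figure D3:**
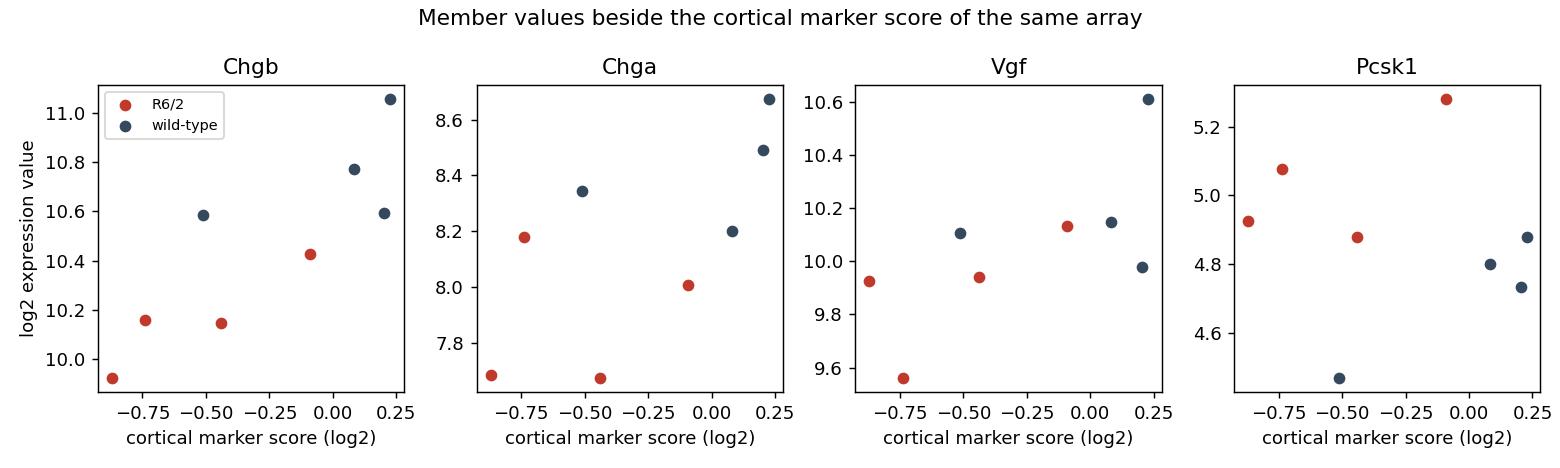
Log2 expression value (vertical axes) of Chgb, Chga, Vgf and Pcsk1 beside the cortical marker score of the same array (horizontal axes, log2, relative to the wild-type mean), for R6/2 mice (red) and wild-type mice (dark blue). Scores run from -0.87 to -0.09 in R6/2 mice and from -0.51 to 0.23 in wild-type mice; Chgb is highest at the top score of each group.

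Some markers of other cells also differed between genotypes, and their part in the results on granins was not tested. Over all genes 5.13% were called lower and 7.29% higher, and among genes with a mean of at least 10, 14.1% and 9.8%. Of the medium spiny neuron markers, 10 of 13 fell and 1 rose, with no overlap of their score (-0.66 to -0.62 in R6/2 mice, -0.19 to 0.13 in wild-type mice). Among the rest, 2 of 8 astrocyte, 2 of 7 oligodendrocyte, 3 of 6 endothelial and 1 of 10 interneuron markers fell and none rose. These lists are short, and their counts were not tested against the shares above. At an unadjusted p under 0.05 by limma, 6 astrocyte, 4 oligodendrocyte, 3 endothelial and 5 interneuron markers were lower and 0 higher. Astrocyte scores did not overlap either (-0.27 to -0.18 in R6/2 mice, -0.15 to 0.20 in wild-type mice). The same held for endothelial (-0.49 to -0.26, against -0.085 to 0.16) and interneuron scores (-0.38 to -0.21, against -0.044 to 0.067), while oligodendrocyte scores overlapped. Of 8 microglia markers 0 passed by limma (1 lower and 0 higher at an unadjusted p under 0.05). Of 9 choroid plexus and ependymal markers 1 rose, with scores from -0.50 to 1.24 in R6/2 mice and from -0.57 to 0.76 in wild-type mice. The marker that rose, Enkur, averaged 5.09 in R6/2 mice and 4.24 in wild-type mice. It was among 4 of the 9 with both group means below 5.37.

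Other genes that process peptides included 2 that rose. Of 14 measured genes, 1 fell, 2 rose and 11 did not pass, with a median difference of 0.11 beside -0.0034 over all genes, 7.29% of which were called higher. Ctsl, the protease cathepsin L, which can also cut neuropeptide precursors, rose: 10.04, 10.26, 10.15 and 10.23 in R6/2 mice 64, 65, 70 and 78, against 9.53, 9.59, 9.39 and 9.88 in wild-type mice 42, 48, 54 and 63. Its difference was 0.57 ± 0.11 (log2, SE, limma adjusted p = 0.00930), and 0.61 ± 0.15 with the cortical covariate (adjusted p = 0.0605). Ctsl also had a dim probe set, with no difference beyond its spread (-0.032, adjusted p = 0.922).

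Rnpep, the aminopeptidase B that removes basic residues from the front of peptides, averaged 8.19 ± 0.13 in R6/2 mice and 7.64 ± 0.061 in wild-type mice (SD, n = 4 each; difference 0.55 ± 0.081, SE, limma adjusted p = 0.00323). Pcsk5, the convertase PC5/6, averaged 4.96 ± 0.35 in R6/2 mice and 5.81 ± 0.39 in wild-type mice, with overlapping groups and its R6/2 mean below 5.37. It fell by 0.85 ± 0.21 on the log2 scale (limma adjusted p = 0.0293), a call lost without R6/2 mouse 65, 70 or 78 or wild-type mouse 42, 48 or 63 (adjusted p up to 0.0805) and with the cortical covariate (-0.36, adjusted p = 0.277). Of the 4 other probe sets of Pcsk5, each dim, none passed (adjusted p from 0.365 to 0.967).

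Pcsk1n encodes proSAAS, a granin-like inhibitor of PC1/3, and measured 11.64, 11.31, 11.35 and 11.53 in R6/2 mice 64, 65, 70 and 78, against 11.37, 11.27, 11.25 and 11.19 in wild-type mice 42, 48, 54 and 63. R6/2 mice 65 and 70 lay within the wild-type range. The difference was 0.18 ± 0.090 (log2, SE, limma adjusted p = 0.239). Pcsk1n minus Pcsk1 was 6.42 ± 0.055 in R6/2 mice and 6.55 ± 0.16 in wild-type mice (SD, n = 4 each). The exact permutation test, 2-sided, gave p = 0.0571 (adjusted p = 0.171 over the 3 pairs). Both group means of Pcsk1 were below the background level of 5.37, so this pair cannot decide whether Pcsk1n and Pcsk1 changed alike. The pairs of Pcsk2 with Pcsk1 and with Scg5 could not be tested.

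Among the peptide precursors that pass through this route, Penk, Pdyn and Npy fell, while Tac1, the precursor of substance P, differed by 0.021 ± 0.091 (log2, SE, limma adjusted p = 0.920). Tac1 lay between 11.70 and 11.80 in R6/2 mice and between 11.51 and 11.93 in wild-type mice. Of 26 measured precursor genes, 8 fell, 0 rose and 18 did not pass by limma (10 lower and 0 higher at an unadjusted p under 0.05), against 5.13% of all genes called lower, with a median of -0.16. Penk (enkephalin) averaged 11.22 ± 0.065 in R6/2 mice and 12.51 ± 0.16 in wild-type mice, and Npy (neuropeptide Y) 9.35 ± 0.25 in R6/2 mice and 10.07 ± 0.10 in wild-type mice (SD, n = 4 each). Pdyn (dynorphin) fell by 0.75 ± 0.11 on the log2 scale (SE, limma adjusted p = 0.00386), and Sst (somatostatin) by 0.47 ± 0.12 (adjusted p = 0.0390). The count of 8 varied with the mice: 4 without R6/2 mouse 64, 3 without R6/2 mouse 65, 70 or 78, 5 without wild-type mouse 42 and 4 without wild-type mouse 63. With the cortical covariate 2 precursor genes were lower, and Npy did not pass (-0.51, adjusted p = 0.0734). Of the precursors, 12 of the 26 had both group means below 5.37, among them Crh, Tac2 and Adcyap1, which were called lower.

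Genes of the dense-core vesicle itself were called lower at about the share of all genes. Of 20 measured, 1 fell (against 5.13% of all genes called lower), 0 rose and 19 did not pass by limma (2 lower and 4 higher at an unadjusted p under 0.05), with a median of 0.011. Syt7, a calcium sensor of vesicle release, averaged 10.10 ± 0.090 in R6/2 mice and 10.65 ± 0.13 in wild-type mice (SD, n = 4 each; difference -0.56 ± 0.085, SE, limma adjusted p = 0.00388). Of its 3 other probe sets, 2 also fell (-0.43 and -0.60), and the dim one did not pass (-0.38, adjusted p = 0.103). With the cortical covariate the adjusted p of Syt7 was 0.0554.

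Genes that neurons transcribe in response to activity, the class to which Vgf and several CREB targets belong, included many that fell: 9 of 14 fell, against 5.13% of all genes, 0 rose, against 7.29%, and 5 did not pass by limma (13 lower and 1 higher at an unadjusted p under 0.05), with a median of -0.72. Egr2 (-2.38 ± 0.25), Npas4 (-2.09 ± 0.25) and Homer1 (-0.80 ± 0.11) had the smallest adjusted p, 0.000748, 0.00124 and 0.00216 (log2, SE, limma). R6/2 means of Egr2 and Npas4 lay below 5.37. A dim probe set of Homer1 did not pass (-0.082, adjusted p = 0.501), and the other 4 of Homer1 fell. With the cortical covariate 5 of the 14 were lower.

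**Figure D4:**
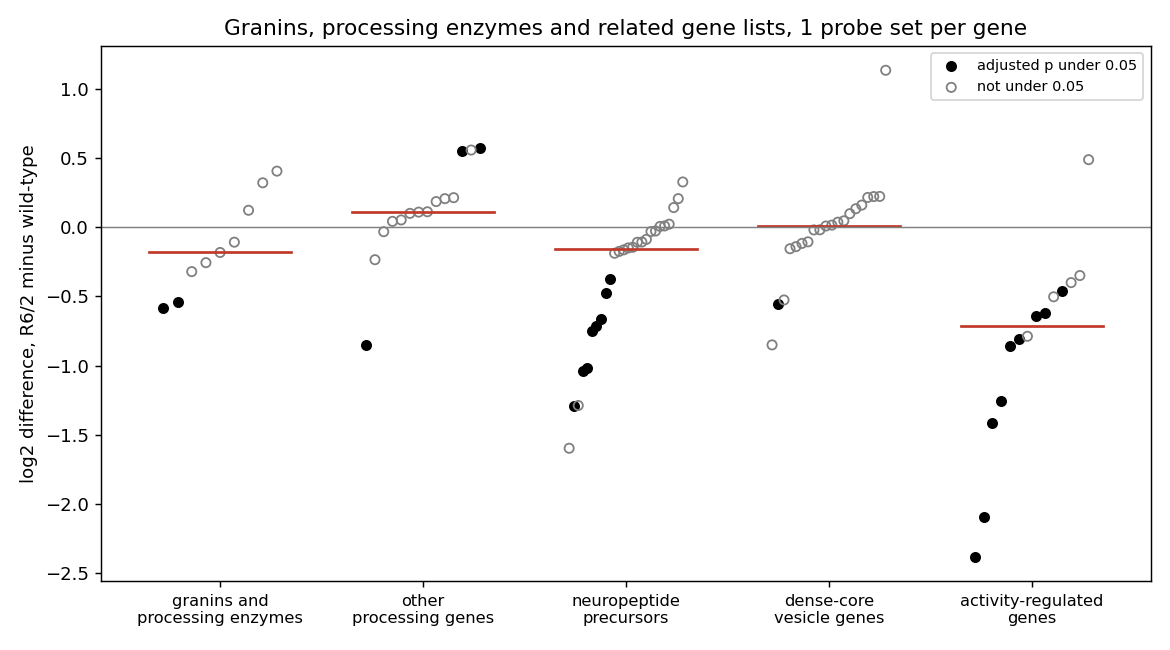
Log2 difference, R6/2 minus wild-type (vertical axis), of each gene's brightest probe set in the 9 measured members and in 4 lists of related genes; filled points have an adjusted p under 0.05 and the red line is the median of each list. Medians are -0.18, 0.11, -0.16, 0.011 and -0.72 from left to right.

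The genes whose values varied most like Chgb from mouse to mouse were sought after subtracting each genotype's mean, among 11272 probe sets of other genes with a mean of at least 7. The 5 highest correlations over the 8 arrays were those of Dus1l (0.993), Mef2d (0.986), Smim13, Syne1 and Lysmd2 (0.984 each). None of them passed the test between genotypes, and Dus1l differed by 0.0029 ± 0.094 (log2, SE, limma adjusted p = 0.990), a sign that turns under other settings. These correlations are a description, chosen as the highest of many.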

How the data were processed

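The authors deposited log2 values, 1 per probe set and array, for which affy and RMA are named, per the submitters' processing notes, without a version. As background, RMA quantile-normalizes the arrays and compresses differences of dim probe sets; the arrays it was run on are not given in the sources used. Groups and mouse numbers came from the titles, with a number for each animal, and p-values measure the spread between animals.

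Of 45101 probe sets, 64 controls were left out. The platform annotation gave 1 symbol to 34945, several to 932 and none to 9160; 34741 symbols were matched to RefSeq by Entrez ID. The comparison of genotypes used limma 3.58.1 in R 4.3.3 (lmFit and eBayes on 8 arrays), with p-values adjusted by Benjamini-Hochberg over 45037 probe sets, and called at 0.05. Lists use each gene's brightest probe set. Gene pairs were compared by an exact permutation test; 2 of 5 planned pairs needed Pcsk2. Named genes of a list were the 3 falls and 3 rises with the smallest adjusted p, or the 2 brightest where none was called. Other named genes (Slc17a7, Tac1, Sst, Crh, Tac2 and Adcyap1) were chosen after their values were seen. The members and lists were chosen with earlier results of these data known. The fit was tested on simulated data, in 3 runs with 200 changed probe sets, fewer than were called in the data. It found 39.7% of log2 differences of 0.5 and 89.7% of those of 1, and 6.48% of its calls were false. Alternatives were other normalizations, filters, moderation, array weights, 1 probe set per gene, a cortical marker covariate and leaving out each array. Figures used Python 3.11.15 and matplotlib 3.10.9.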

Additional observations from a re-analysis of the deposited data

How the results depend on the processing

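No paired analysis was possible because each mouse has 1 genotype and the labels used here name no litter or other pairing. The count of members called lower, 2 in the report by probe sets and by genes, was 0 without moderation of variances, 0 with the cortical covariate, 1 with array weights and 0 to 1 without 1 array; it was 0 without R6/2 mouse 65 or 70. Members called higher, 0 in the report, numbered 1 with the cortical covariate (Pcsk1). Quantile normalization, median centring, leaving out the dimmest 40% of probe sets, and trended robust moderation left both counts as reported. With 1 probe set per gene 3 member genes were lower (Pam, below the background level, added) and 0 higher. Without 1 array, Chga minus Chgb lay between -0.056 and 0.12, its sign turning without R6/2 mouse 78 (-0.056) or wild-type mouse 48 (-0.039); Pcsk1n minus Pcsk1 lay between -0.17 and -0.058 and Cpe minus Pam between 0.0094 and 0.11. Using all probe sets above background was possible only for Chga minus Chgb. Signs also turned for the dim Cpe probe set (0.028 and 0.018, from -0.21 to 0.028 without 1 array), for the microglia gene C1qa (0.074; -0.026 with array weights, -0.022 without R6/2 mouse 64, -0.13 without wild-type mouse 42, up to 0.17 without R6/2 mouse 70), for Mef2d (0.057 with the covariate) and for Dus1l (-0.034 after quantile normalization, -0.053 without R6/2 mouse 64, -0.0012 without 70, -0.026 without wild-type mouse 54, -0.034 without 63, up to 0.064 without 42). All probe sets called numbered 4566, 1861 without moderation and 2650 to 4262 without 1 array. The cause of these changes was not tested, and each fit without 1 array also had fewer arrays. None of 22 groups of 4 values (11 probe sets) held an outlying mouse by Dixon's test.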
